A study of Mus musculus with 10 samples.

Results

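The core circadian clock genes and the clock output gene Dbp were examined in the jejunum (the stretch of small intestine between duodenum and ileum) of male mice with and without Klf9, a Kruppel-like zinc finger protein that binds GC-rich DNA. By symbol, 10 members were taken of 12393 genes on the array: Arntl (also called Bmal1), Clock, Npas2, Per1, Per2, Per3, Nr1d1, Nr1d2, Dbp and Tef. Every probe set whose platform annotation names 1 of these genes alone was used, which gave 19 of 22626 probe sets and covered all 10 genes. A probe set is a group of short oligonucleotides that together read 1 transcript on an Affymetrix mouse 430A array. There were 5 arrays from mice labelled Klf9-/- (knockout) and 5 from mice labelled wild type, all males at postnatal day 30, with 1 animal per array by the design text, while the cRNA protocol mentions pooled RNA. On knockout replicate 1 the characteristics name both genotypes, and its title was followed. The knockout is labelled as a plain mutant, with no promoter, Cre or tissue restriction given. The labels name no treatment in either group. No source used here gives the time of day at which tissue was taken, the strain, or which part of Klf9 the mutation removes.

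The clock is a feedback loop of transcription. BMAL1, the product of Arntl, pairs with CLOCK or with its relative NPAS2, and the pair binds E-boxes and switches on the period genes, the cryptochromes, Nr1d1, Nr1d2, Dbp and Tef. The period and cryptochrome proteins then return to inhibit that pair, and the nuclear receptors REV-ERB alpha and beta, made from Nr1d1 and Nr1d2, repress Arntl through ROR elements. DBP and TEF are PAR leucine zipper factors that carry the rhythm to D-box genes, so in most mouse tissues, the gut included, Dbp and the period genes peak when Arntl is low. Arntl, Clock and Npas2 are called the positive limb here, and the other 7 genes the negative limb and output.

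The letters of these elements were sought on both strands of the windows from 250 bases before to 50 bases after each annotated start site in RefSeq (GRCm38.p6), where 9 of the 10 members were found, some with several start sites. Per2 had no entry. The 4 windows shown were chosen because they hold the elements through which the limbs are linked, with the matches in capitals, each written 5' to 3'. Counting from the start site, with the base before it as -1, the E-box CACGTG lies at -166 to -161 in the Per1 window and at -127 to -122 in the Tef window. The D-box TTATGTAA lies in the Per3 window at -205 to -198 and again at -158 to -151. The ROR element, with any base accepted next to its last, was matched in the Arntl window as AAAGTAGGTTA at -10 to 1 and as AAAGTAGGTCA at 27 to 37.
Per1, chr11:69098699-69098998, plus strand: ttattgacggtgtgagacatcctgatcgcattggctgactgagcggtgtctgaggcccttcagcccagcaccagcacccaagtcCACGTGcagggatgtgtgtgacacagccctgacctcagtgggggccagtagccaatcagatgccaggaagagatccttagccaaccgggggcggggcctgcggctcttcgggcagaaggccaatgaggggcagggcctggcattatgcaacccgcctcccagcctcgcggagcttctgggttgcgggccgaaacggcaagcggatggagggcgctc
Tef, chr15:81802423-81802722, plus strand: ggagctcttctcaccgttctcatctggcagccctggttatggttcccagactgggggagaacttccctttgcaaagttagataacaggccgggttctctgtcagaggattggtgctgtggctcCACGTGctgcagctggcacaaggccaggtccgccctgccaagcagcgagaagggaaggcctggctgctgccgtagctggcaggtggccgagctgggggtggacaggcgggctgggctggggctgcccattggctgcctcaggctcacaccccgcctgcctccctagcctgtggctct
Per3, chr4:151044616-151044915, minus strand: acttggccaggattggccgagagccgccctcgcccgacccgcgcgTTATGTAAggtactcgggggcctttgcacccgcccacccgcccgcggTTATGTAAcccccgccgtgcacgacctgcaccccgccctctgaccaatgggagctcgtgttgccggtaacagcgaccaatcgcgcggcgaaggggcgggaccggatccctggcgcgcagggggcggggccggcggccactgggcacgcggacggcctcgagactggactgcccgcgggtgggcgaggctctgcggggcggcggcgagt
Arntl, chr7:113207261-113207560, plus strand: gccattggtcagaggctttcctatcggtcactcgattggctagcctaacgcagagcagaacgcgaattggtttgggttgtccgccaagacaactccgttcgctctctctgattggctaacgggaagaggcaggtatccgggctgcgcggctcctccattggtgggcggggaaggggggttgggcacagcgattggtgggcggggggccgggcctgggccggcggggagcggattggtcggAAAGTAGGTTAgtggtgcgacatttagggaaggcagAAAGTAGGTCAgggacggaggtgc
Of all 32851 windows, 7.15% held the E-box letters, 0.938% the D-box letters and 0.0609% the ROR element. Among the members with a window, 2 of 9 held the E-box in at least 1 window (Per1 and Tef), 1 the D-box and 1 the ROR element. Those are counts of genes, some with several windows, and are not directly comparable with the shares of windows. The other Tef window held CACGTG too. No match overlapped another in the windows shown, and the windows say nothing of elements farther away, such as those in introns.

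Klf9 itself was read first, as a check of the labels. On its brightest probe set the scaled signal was 944, 485, 340, 526 and 451 on knockout replicates 1 to 5, and 551, 1320, 1038, 1250 and 964 on wild type replicates 1 to 5. The 2 arrays labelled replicate 1 thus go against their labels, and every direction below rests on those labels. For that reason the values without both arrays are given for the clock genes as well. Scaled signal means the deposited intensity with each array brought to a common trimmed mean. The median signal of an array lay between 171 and 194, with knockout replicate 5 at 171. An intestinal source was borne out by the enterocyte genes Fabp2 (17640 to 28593 over all arrays) and Vil1 (9923 to 15218). These genes do not tell the jejunum from the other parts of the small intestine. The pancreatic Cpa1 and the hepatic Fgb, the dimmest of the marker genes measured for each organ, had mean signals of 3.71 and 2.84. Brighter pancreatic genes were Cela1, Prss2 and Ctrb1, at means of 439, 289 and 254. Brighter hepatic genes were Apoh, Alb and Ttr, at means of 176, 67.6 and 58.1. Signals of different probe sets are not comparable as levels of RNA.

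Dbp, the output gene, had the largest difference of the 15 member probe sets tested. Its scaled signal was 804, 577, 632, 762 and 218 on knockout replicates 1 to 5, and 269, 325, 133, 235 and 286 on wild type replicates 1 to 5. On knockout replicates 1 to 4 it lay above every wild type array, and knockout replicate 5 lay inside the wild type range. The mean signal was 598 ± 232 (SD, n = 5) in knockout and 250 ± 72.7 (SD, n = 5) in wild type. On the log2 scale of signal plus 50, the difference was 1.05 ± 0.28 (moderated SE), or 2.07 times as high. The unadjusted p was 0.00239 and the limma adjusted p over all probe sets was 0.441, so that Dbp did not pass the threshold of 0.05. The exact two-sided permutation test gave p = 0.0397, where 0.00794 is the smallest that 5 against 5 allows. That probe set, 1438211_s_at, is of a kind that can read related transcripts as well. The other Dbp probe set, 1418174_at, had knockout replicates 1 to 4 above every wild type array too, but knockout replicate 5 below them all, with 502, 529, 489, 351 and 142 in knockout and 261, 259, 162, 236 and 180 in wild type. It differed by 0.66 ± 0.26 (SE, limma adjusted p = 0.554, exact permutation p = 0.0714).

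Tef, the other PAR leucine zipper factor, was also higher on knockout replicates 1 to 4 than on the other arrays. Its brightest probe set read 1096, 1370, 1286, 944 and 542 on knockout replicates 1 to 5 and 735, 944, 680, 691 and 828 on wild type replicates 1 to 5. Knockout replicates 1 to 4 lay above every wild type array, knockout replicate 4 by less than 1 unit, and knockout replicate 5 lay below all of them. The difference was 0.36 ± 0.20 (SE, limma adjusted p = 0.686). A dimmer Tef probe set, 1438033_at, had the opposite sign at -0.11 ± 0.14 (SE), with signals of 86.1 to 144 in knockout and 87.4 to 160 in wild type. The third, 1450184_s_at, lay between 19.9 and 182 and was too dim to be tested.

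**Figure D1:**
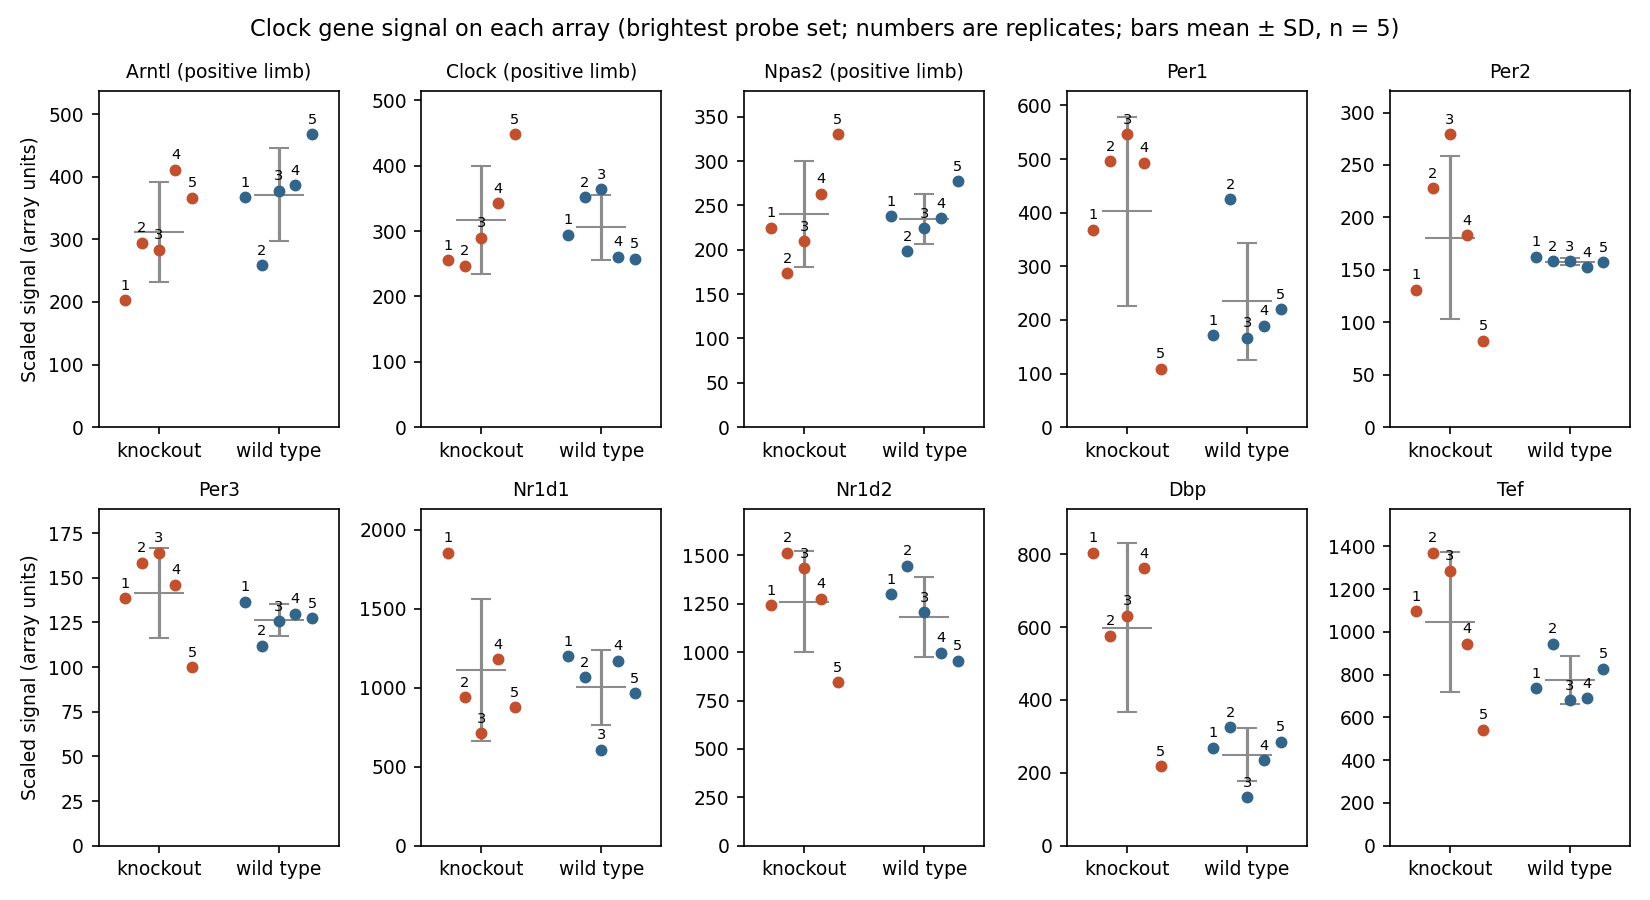
Scaled signal (array units, linear axes from 0) of the brightest probe set of each clock gene on each array. Points are arrays numbered by replicate, orange for knockout and blue for wild type, and grey bars are the mean ± SD (n = 5). For Dbp, knockout replicates 1 to 4 lie at 577 to 804 and all other arrays at 325 or less.

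Per1, a period gene that also responds quickly to glucocorticoids and other stimuli, divided the arrays in a similar way. It read 368, 495, 546, 493 and 109 on knockout replicates 1 to 5 and 172, 425, 167, 189 and 220 on wild type replicates 1 to 5. Knockout replicate 5 was the lowest of all 10 arrays, and wild type replicate 2 lay among the knockout arrays. The groups overlapped, and the difference of 0.60 ± 0.32 (SE) had a limma adjusted p of 0.678. Per1 has a single probe set on this array.

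Per2, whose protein with the cryptochromes is the main brake on CLOCK and BMAL1, was nearly level in wild type and scattered in knockout. The 5 wild type arrays lay between 153 and 162, with an SD of 0.024 on the log2 scale, and the knockout arrays read 131, 228, 279, 183 and 82.5 (SD 0.52). The group difference was 0.08 ± 0.20 (SE, limma adjusted p = 0.945). Its second probe set lay between 42.7 and 127 and was too dim to be tested. Per3, the third period gene, was dim on all 3 of its probe sets, and 1 was tested. There it read 139, 159, 164, 146 and 100 in knockout against 112 to 137 in wild type. Knockout replicates 1 to 4 lay above all wild type arrays and knockout replicate 5 below them, and the difference was 0.11 ± 0.12 (SE, limma adjusted p = 0.857). The untested Per3 probe sets lay between 82.7 and 151 and between 21.2 and 72.6.

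Nr1d1, the gene of REV-ERB alpha, did not share the order of Dbp. It read 1854, 940, 711, 1180 and 875 on knockout replicates 1 to 5 and 1201, 1066, 607, 1170 and 964 on wild type replicates 1 to 5. The groups overlapped throughout apart from knockout replicate 1, and the difference was 0.10 ± 0.23 (SE, limma adjusted p = 0.940). Without knockout replicate 1 it was -0.09 and without both arrays labelled replicate 1 it was -0.02. Nr1d2, the gene of REV-ERB beta, lay between 843 and 1513 in knockout and between 956 and 1446 in wild type, with knockout replicate 5 lowest and knockout replicate 2 highest. It differed by 0.08 ± 0.16 (SE, limma adjusted p = 0.933). Its dimmer probe set had the opposite sign, at -0.17 ± 0.19 (SE).

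In the positive limb, Arntl read 203, 294, 283, 411 and 366 on knockout replicates 1 to 5 and 367, 259, 377, 387 and 468 on wild type replicates 1 to 5. Knockout replicate 1 was the lowest array, wild type replicate 2 the lowest of its group, and the groups overlapped. The mean was 312 ± 80.4 (SD, n = 5) in knockout and 372 ± 74.4 (SD, n = 5) in wild type, a log2 difference of -0.23 ± 0.17 (SE, limma adjusted p = 0.762). The exact permutation test gave p = 0.262. Without both arrays labelled replicate 1 the difference was -0.11 ± 0.17 (SE).

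Clock, the partner of BMAL1, differed by 0.03 ± 0.15 (SE) on its brightest probe set and by -0.05 ± 0.12 (SE) on the other. On the former the range was 247 to 448 in knockout and 258 to 364 in wild type, with knockout replicate 5 highest. Npas2, which can stand in for CLOCK, differed by 0.01 ± 0.14 (SE) on the brightest probe set, with 173 to 330 in knockout and 198 to 277 in wild type. There too knockout replicate 5 was highest. Its second probe set differed by -0.22 ± 0.19 (SE). The sign for Clock and for Npas2 thus depended on the probe set.

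To set the limbs side by side on each array, every gene's log2 value was expressed as a deviation from its mean over the 10 arrays and the deviations were averaged over each limb. This is a description with no test. Knockout replicates 1, 2 and 3 had negative limb and output means of 0.34, 0.38 and 0.38 with positive limb means of -0.29, -0.26 and -0.14. Knockout replicate 4 was high in both limbs, at 0.32 and 0.18. Knockout replicate 5 was the reverse of the first 3, with -0.58 for the negative limb and output and 0.34 for the positive limb. All 7 negative limb and output genes were below their mean there and all 3 positive limb genes above it, by the brightest probe set of each gene. Dimmer probe sets did not all follow on that array. The second of Npas2 read 143 (mean 161), and the dimmest of Per3, not tested, read 52.4 (mean 48.1).

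Wild type arrays spanned a narrower range, with -0.42 to 0.08 for the negative limb and output and -0.11 to 0.14 for the positive limb. Wild type replicate 2 was the one wild type array with the negative limb and output above and the positive limb below the mean, as on knockout replicates 1 to 3. Wild type replicate 3, at -0.42, had the lowest negative limb and output mean of its group. The limb means had opposite signs on wild type replicates 1, 2, 3 and 5 as well. The difference between limbs, negative limb and output minus positive, spanned -0.91 to 0.64 over the knockout arrays (SD 0.66) and -0.53 to 0.19 over the wild type arrays (SD 0.26). The group means of that difference were 0.20 and -0.20, a distance smaller than the SD within the knockout group.

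**Figure D2:**
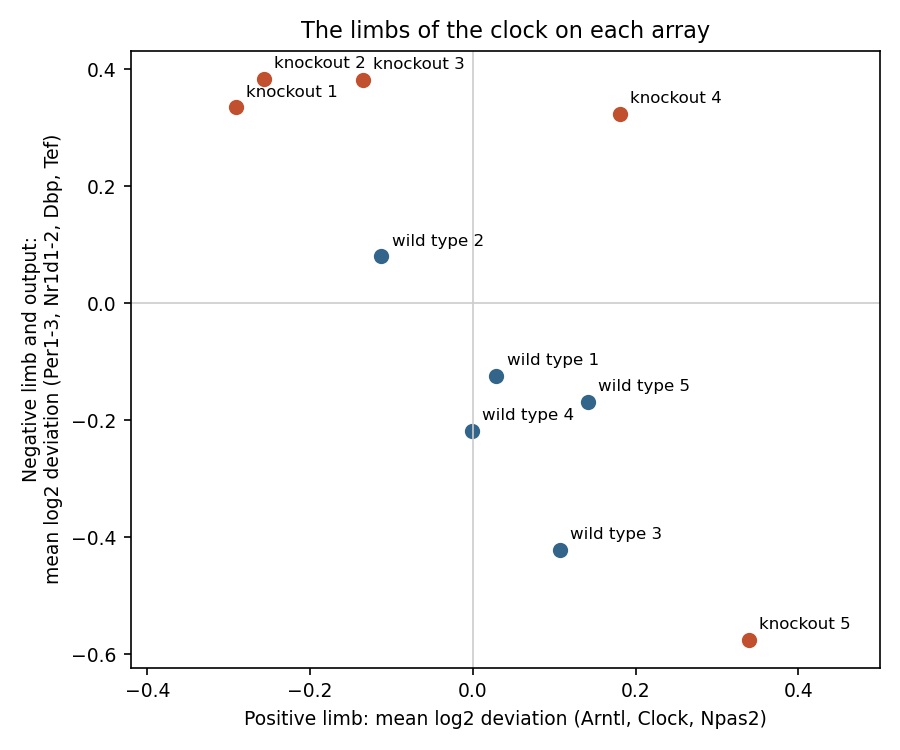
Mean log2 deviation of the positive limb (horizontal axis) and of the negative limb and output (vertical axis) on each array, each gene taken from its mean over all 10 arrays. Points are arrays, orange for knockout and blue for wild type, and knockout replicate 5, at 0.34 and -0.58, lies farthest from knockout replicates 1 to 3.

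Dbp values lay in a lower set of 6 arrays (up to 325) and a higher set of 4 (577 and above). A split by Dbp itself narrows the range of Dbp, and the 3 wash runs hold at most 4 arrays each. In the lower set alone, Arntl and Dbp gave r = -0.28 and rho = -0.14 (exact permutation p = 0.544 and 0.803, n = 6). With so narrow a range of Dbp, these values do not settle the relation between Arntl and Dbp apart from that split.

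The spread over all 10 arrays was large for Dbp and Per1. Their SD on the log2 scale was 0.76 and 0.69, where the median of all tested probe sets was 0.21, and 99.4% and 99.2% of tested probe sets had a lower SD. Nr1d1 (0.42), Tef (0.40), Per2 (0.35) and Arntl (0.31) followed, above 94.2%, 93.2%, 88.0% and 82.1% of tested probe sets. Nr1d2 and Clock had SDs of 0.27 and 0.24. Npas2 (0.22, above 50.5%) was close to the median, and the dim Per3 (0.16, above 19.1%) was below it.

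Between knockout and wild type, 0 of the 15 member probe sets tested passed the threshold, as did 0 of all 13579 (0.0%). An unadjusted p under 0.05 was found for 2 of the 15, both of Dbp, where the background was 7.89%. Both were higher in knockout, where the background was 3.65%, and 0 were lower, where it was 4.24%. No member had groups without overlap, against 1.55% of all probe sets. Of the 15, 10 were higher and 5 lower, with a median of 0.08, beside a median of -0.01 over all probe sets tested. The brightest probe sets of all 7 negative limb and output genes had a positive difference, with a median of 0.11. That count rests on the choice of probe set: with the probe sets of a gene averaged, Per2 (-0.0090), Per3 (-0.064) and Nr1d2 (-0.045) had a negative difference and Tef was at 0.013. A positive sign was found for 48.6% of all probe sets tested. By a count chosen after the values were seen, 4 of the 15 (both of Dbp, and 1 each of Tef and Per3) had 4 of 5 knockout arrays above every wild type array, or 26.7%, where the background was 3.85%.

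**Figure D3:**
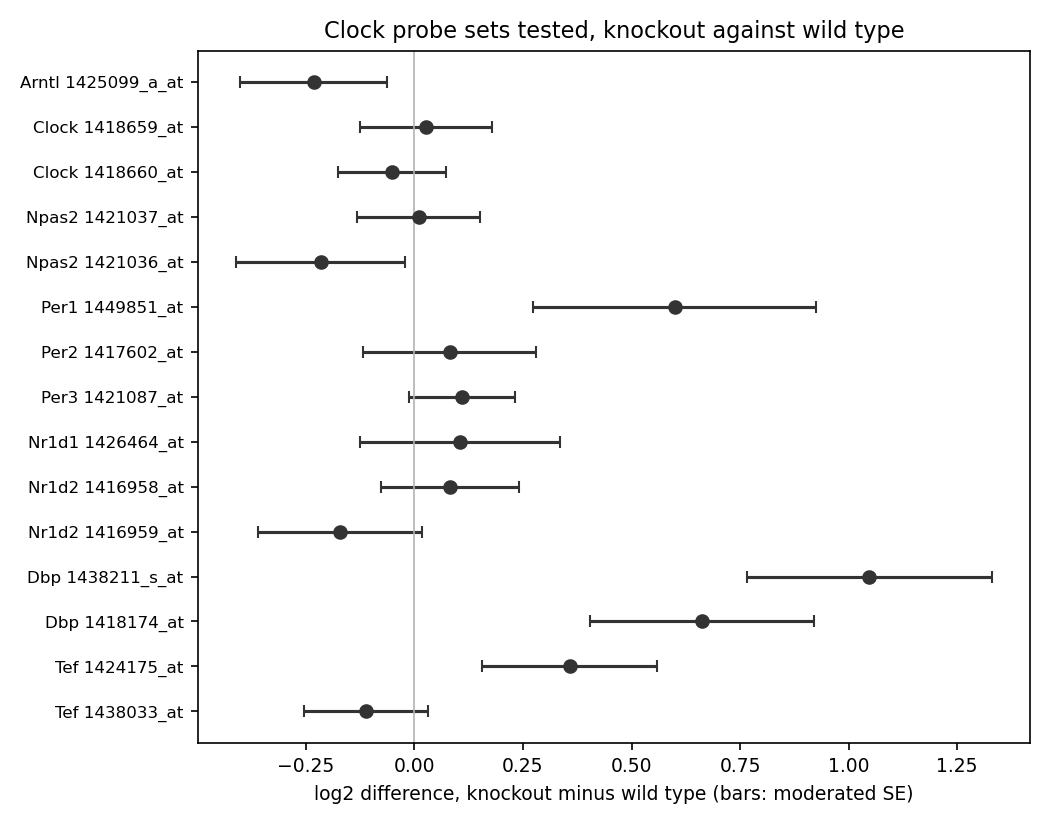
Log2 difference, knockout minus wild type, of the 15 clock probe sets tested, as points with the moderated SE as bars. Dbp lies at 1.05 and 0.66, Per1 at 0.60 and the brightest Tef at 0.36, and the others lie between -0.23 and 0.11.

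A single array decided whether Dbp was called. Knockout replicate 5 stood out through Dbp, Per1 and Tef themselves, so the fit without it is no separate support for them. Without knockout replicate 5, Dbp differed by 1.34 ± 0.19 (SE, limma adjusted p = 0.0434) and was 1 of 3 probe sets that passed (0.0221% of 13579). An unadjusted p under 0.05 was found for 4 member probe sets (both of Dbp, and those of Per1 and Tef), where the background was 7.7%. In that fit Per1 differed by 0.94 ± 0.21 (SE, adjusted p = 0.488), against 0.60 with it, and Tef by 0.56 ± 0.14 (SE, adjusted p = 0.488), against 0.36 with it. The second Dbp probe set differed by 0.94 ± 0.16 (SE, adjusted p = 0.121). Arntl differed by -0.29 ± 0.18 (SE). Klf9 on knockout replicate 5 read 451, inside the range of the other knockout arrays, so its Klf9 signal did not go against its label. Without both arrays labelled replicate 1, Dbp differed by 0.95 ± 0.31 (SE, adjusted p = 0.375), Per1 by 0.52 ± 0.38 and Tef by 0.31 ± 0.23 (SE). In that fit 0 members passed, where the background was 0.0663%, and 2 probe sets of members had an unadjusted p under 0.05, where it was 10.2%. They were the brightest of Dbp and the second of Npas2, which was lower in knockout (-0.36 ± 0.16 SE), while the second of Dbp differed by 0.62 ± 0.29 (SE). Knockout replicate 1 had the highest signal of all arrays on the brightest Dbp probe set. On the brightest Klf9 probe set it read 944, above the other knockout arrays (340 to 526) and below wild type replicates 2 to 5 (964 to 1320). Leaving out wild type replicate 2 gave 0.80 for Per1.

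**Figure D4:**
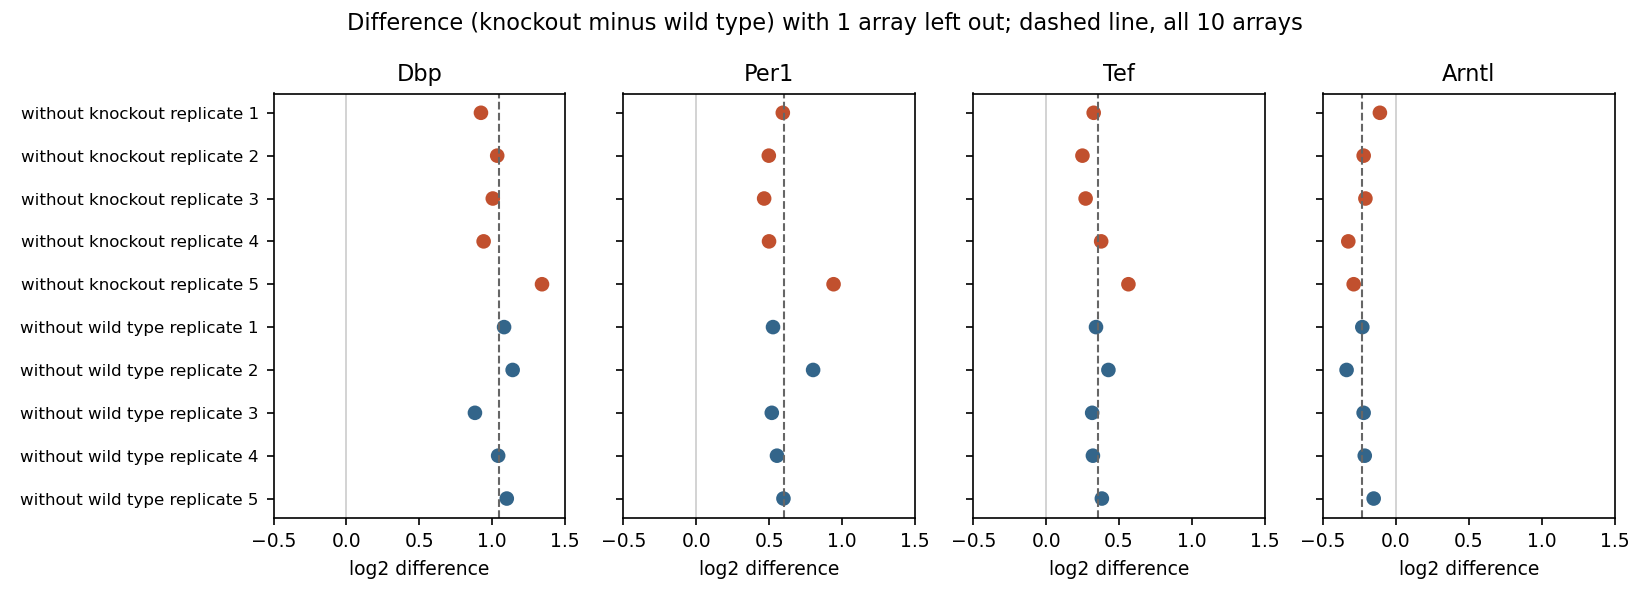
Log2 difference, knockout minus wild type, of Dbp, Per1, Tef and Arntl with 1 array left out at a time (rows; orange for knockout arrays, blue for wild type arrays). Dashed lines mark the values over all 10 arrays, and the largest move is without knockout replicate 5, where Dbp is at 1.34 and Per1 at 0.94.

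Arrays were washed in 3 runs, told apart by gaps between recorded times. Runs 1 and 2 each held 2 arrays of each group, and run 3 held knockout replicate 5 and wild type replicate 5. Dbp differed by 1.08 within run 1, 1.70 within run 2 and -0.33 within run 3. Per1 differed by 0.56, 1.32 and -0.76, and Tef by 0.53, 0.65 and -0.57. Arntl was lower in knockout within each run, with differences of -0.28, -0.14 and -0.31. Fluidics modules 1 and 2 held knockout replicates 1 to 4 and no wild type array, and module 3 held wild type arrays alone. The higher set of 4 arrays for Dbp was thus the set on modules 1 and 2. For those arrays genotype and module cannot be told apart. Only module 4 held both groups, with knockout replicate 5 and 2 wild type arrays. There Dbp differed by -0.29, Per1 by -1.08 and Arntl by 0.18. Run 3 and module 4 both rest on knockout replicate 5, so its animal, its run and its module cannot be told apart. For Dbp, wild type replicate 5 of the same run read 286, and wild type replicates 2 and 4 of the same module read 325 and 235. What sets knockout replicate 5 apart was not tested.

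Among the 8289 other genes tested, the pattern over the 10 arrays most like that of Dbp was sought by Pearson's r, given as a description only. Of the members, Per1 (r = 0.84) and Tef (r = 0.81) were nearest, and 0.362% and 0.664% of genes had a higher r. Outside the members the highest were Bnip3 (r = 0.94), a mitophagy receptor induced by hypoxia, Apba3 (0.94), an adaptor protein, Kcnk5 (0.94), a potassium channel, Rbks (0.93), ribokinase, and Snapc2 (0.92), of the complex that transcribes small nuclear RNA genes. The lowest were Eif2s2 (-0.96), a translation initiation factor subunit, Vps4b (-0.92), of endosomal sorting, Nr3c1 (-0.90), the glucocorticoid receptor, Rnf145 (-0.90) and Herc4 (-0.89), both ubiquitin ligases. As these genes were chosen by r with Dbp, a difference between knockout and wild type follows in part from that choice. The 5 lowest differed by -0.53 (Rnf145) to -0.21 (Herc4) and the 5 highest by 0.24 (Rbks) to 0.40 (Kcnk5). Nr3c1, 1 of the 5 lowest, read 1288 to 1671 in knockout and 1676 to 2253 in wild type. Its log2 difference was -0.42 ± 0.11 (SE, limma adjusted p = 0.441).

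For Arntl the nearest genes were Mtmr6 (r = 0.94), a phosphoinositide phosphatase, Vps37c (0.88), of endosomal sorting, Galnt7 (0.88), a glycosyltransferase, Trim10 (0.86) and Dnm1l (0.86), which divides mitochondria. The lowest were Mmp14 (-0.85), a matrix metalloproteinase, Tnip1 (-0.83), Col15a1 (-0.83), a collagen, Il1rap (-0.82), a subunit of the interleukin-1 receptor, and Tbc1d17 (-0.82). Among the members r with Arntl was 0.57 for Npas2, 0.19 for Clock, and -0.57 for Tef, the lowest. No member reached the values of those 10 genes, and 96.0% of genes had a higher r with Arntl than Tef.

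Other genes of the clock pathway were read from 6 lists of 26 genes, of which 21 were measured and 16 passed the filter on low signal. None of the 16 passed the threshold in limma. An unadjusted p under 0.05 was found for 2, Bhlhe40 and Cdkn1a, both higher in knockout, or 12.5% where the background for either direction was 7.89%. The median difference of the 16 was 0.13, with 12 higher and 4 lower. Arntl2, a relative of Arntl, read 112 to 282 in knockout and 43.8 to 240 in wild type (0.43 ± 0.28 SE). Both cryptochrome genes were too dim to be tested, with Cry2 at a mean of 48.6.

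Bhlhe40, a repressor that competes at E-boxes, read 525 to 1071 in knockout and 479 to 609 in wild type, a difference of 0.42 ± 0.18 (SE, limma adjusted p = 0.611). Timeless, of DNA replication and named for a fly clock gene, differed by 0.11 ± 0.11 (SE). Rora, an activator at ROR elements, differed by -0.13 ± 0.11 (SE). Hlf, the third PAR leucine zipper factor, differed by 0.04 ± 0.13 (SE). Among 6 measured kinases, ubiquitin ligases and proteases that act on clock proteins, 5 were higher and 1 lower. Csnk1d, a casein kinase that phosphorylates period proteins, read 2665 to 3068 in knockout and 2274 to 2905 in wild type (0.21 ± 0.10 SE, limma adjusted p = 0.634). Usp2, a deubiquitinase under clock control, and Fbxw11, a ubiquitin ligase subunit, differed by 0.23 ± 0.12 and 0.22 ± 0.12 (SE), and Csnk1e by 0.15 ± 0.14 (SE).

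Of 5 measured clock output genes 3 were higher and 2 lower. Cdkn1a, the inhibitor p21, whose gene is repressed by REV-ERB alpha, read 3322 to 4699 in knockout and 3249 to 3544 in wild type (0.27 ± 0.11 SE, limma adjusted p = 0.558). Ppara, a nuclear receptor of lipid use, differed by 0.26 ± 0.22 (SE), Klf10, another Kruppel-like factor under clock control, by -0.10 ± 0.10 (SE) and Wee1, a mitotic kinase, by -0.03 ± 0.14 (SE).

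Also read were 5 genes that respond to glucocorticoids, as Per1 does, of which 4 were higher, 1 was lower and 0 passed. An unadjusted p under 0.05 was found for 1 of the 5, Tsc22d3, where the background was 7.89%. Tsc22d3, the glucocorticoid-induced leucine zipper, read 686 to 878 in knockout and 435 to 795 in wild type (0.39 ± 0.14 SE, limma adjusted p = 0.524). Fkbp5, a co-chaperone of the receptor, differed by 0.43 ± 0.25 (SE). On wild type replicate 2, where Per1 was high, Fkbp5 read 623 and the other wild type arrays 273 to 305. Sgk1, a kinase induced by corticosteroids, differed by 0.53 ± 0.47 (SE). On knockout replicate 5, where Per1 was lowest, Sgk1 read 537 and the other knockout arrays 2049 to 2774. Nfkbia, the NF-kappa B inhibitor, differed by -0.17 ± 0.10 (SE). The 5 genes did not move together on these arrays. On knockout replicate 5, Dusp1, at 367, was the highest of the knockout arrays. Tsc22d3 (794), Fkbp5 (313) and Nfkbia (7965) lay inside the knockout range there. On wild type replicate 2, Sgk1 (3914) and Nfkbia (10597) were the highest of the wild type arrays, while Tsc22d3 (641) and Dusp1 (298) lay inside the wild type range. The part of these genes in the Per1 values was not tested.

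Markers of other cells were read too, and 0 of them passed the threshold in limma. All 8 smooth muscle markers were higher on average in knockout, with a summed signal of 24869 to 38969 against 17711 to 30413 in wild type, and 27652 on knockout replicate 5, and 4 of the 8 had an unadjusted p under 0.05 (background 7.89%). All 5 measured fat cell markers were higher (3 with an unadjusted p under 0.05), at 2223 to 4611 against 849 to 4483, and knockout replicate 5, with its low Dbp, had the highest sum of all arrays. All 5 measured B and plasma cell markers were lower, at 1668 to 9900 against 6144 to 12498, and 1 had an unadjusted p under 0.05. Of the enterocyte markers 4 of 5 were lower, and of the goblet and Paneth cell markers 4 of 4, with 0 of either at an unadjusted p under 0.05. No marker of these lists was at 0 on every array. In whole jejunum more cells of a type and more RNA per cell cannot be told apart, and the part of these cells in the clock values was not tested.

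None of the 10 members lies on chromosome 19, which carries Klf9. Dbp and Arntl are on chromosome 7, Per1 and Nr1d1 on 11, Per2 and Npas2 on 1, Per3 on 4, Clock on 5, Nr1d2 on 14 and Tef on 15. Genes on 1 chromosome did not share a direction in each case, with Dbp at 1.05 and Arntl at -0.23.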

How the data were processed

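Signal intensities per probe set from 10 arrays were used as deposited by the authors, who quantified images with MAS 5.0 per the series' design text. On every array the deposited intensities already had the same 2% trimmed mean, near 500. Each array was scaled again to 500 and log2(signal + 50) was taken, and a fold on that scale understates differences at low signal. The 64 control probe sets of 22690 were dropped. Probe sets were tested if their mean signal passed the 40th percentile (123) or if they read Klf9, in all 13579. Members that failed are given as signals. Their number, 5 arrays in each group, limits the precision.

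Groups were taken from the sample titles. Knockout and wild type were compared with limma 3.58.1 (R 4.3.3), lmFit and eBayes with trend. Tests were two-sided, and p-values were adjusted by Benjamini and Hochberg's method across every probe set tested. On 13579 simulated probe sets the fit found 88 of 100 true 2-fold changes and 53 of 100 true 1.5-fold changes. It made 6 false calls. The changed probe sets were drawn at random, with normal noise independent between probe sets. These shares therefore need not hold for genes of large spread such as Dbp and Per1. Exact permutation used the 252 ways to draw 5 of 10 arrays. Correlations used SciPy 1.17.1, with 100000 resamples. The brightest probe set stood for a gene. Names came from the platform annotation, updated by gene ID to RefSeq (20351 of 20380 probe sets with 1 symbol), and promoter windows from RefSeq. Of the deposited instrument records, only module and time were used.

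Members, lists and alternatives were chosen with earlier results of these data known. The named genes were fixed by rule: all member and Klf9 probe sets, at most 4 genes per list by lowest p, and the 5 genes of highest and lowest r with Dbp and Arntl. Cry2, Dusp1 and the cell type markers were named outside the rule after their values were seen. Alternatives were offsets of 1, 16 and 100, no filter or the 60th percentile, values as deposited, quantile or cyclic loess normalization, an untrended or a robust variance model, weighted arrays, blocks for the replicate number, the wash run (gaps over 30 minutes) or the module, fits lacking single arrays or both labelled replicate 1, and averaged probe sets per gene.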

Additional observations from a re-analysis of the deposited data

Results flagged for a closer look

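On 7 of the 74 gene and group combinations examined, 1 array lay far from the other 4 of its group by Dixon's ratio (above 0.71 on the log2 scale). Chance alone gives about 5% of combinations. Knockout replicate 5 was the low array for Dbp (218, the others 577 to 804), Per1 (109, the others 368 to 546) and Sgk1 (537, the others 2049 to 2774). Wild type replicate 2 was the high array for Per1 (425, the others 167 to 220) and Fkbp5 (623, the others 273 to 305). Knockout replicate 1 was the high array for the dimmer Nr1d2 probe set (256, the others 106 to 138). Wild type replicate 4 was the high array for Csnk1d (2905, the others 2274 to 2407). What sets these arrays apart was not tested.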

How the results depend on the processing

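Dbp was higher in knockout under all alternatives except the fluidics module as a block, and passed only without knockout replicate 5. Each array left out in turn gave 0.88 to 1.34 for Dbp (limma adjusted p 0.0434 to 0.726) and -0.34 to -0.11 for Arntl. In those fits 1 to 4 of 15 member probe sets had an unadjusted p under 0.05, beside 811 to 1351 of all 13579. From 0 to 5 probe sets passed the threshold. Array weights gave 3 past it and leaving out both arrays labelled replicate 1 gave 9, where the values of all arrays gave 0. The brightest Klf9 probe set was 1 of those 9 (-1.26, limma adjusted p = 0.0147). Both arrays were left out for their Klf9 signal, so this is no separate support for the labels. With the module as a block, where knockout replicate 5 alone informs the difference, signs turned for Dbp (-0.29 and -0.63 on its 2 probe sets), Arntl (0.18), Per1 (-1.08), Per2 (-0.63), Per3 (-0.19), Nr1d1 (-0.33), Nr1d2 (-0.49), Tef (-0.53), the second Clock probe set (0.032), Bhlhe40 (-0.021), Hlf (-0.44), Usp2 (-0.16), Csnk1e (-0.069), Ppara (-0.67), Klf10 (0.15), Fkbp5 (-0.40) and Sgk1 (-1.51). Averaging the probe sets of each gene turned Clock (-0.013), Npas2 (-0.10), Per2 (-0.0090), Per3 (-0.064) and Nr1d2 (-0.045), and left Tef at 0.013 against 0.36. Without both arrays labelled replicate 1, Nr1d1 (-0.021), Hlf (-0.021) and Csnk1e (-0.019) turned. Over the fits that lack 1 array or both labelled replicate 1, the sign turned for Clock (-0.091 to 0.10 and, on its second probe set, -0.143 to 0.013), Npas2 (-0.093 to 0.10), Per2 (-0.065 to 0.26), Nr1d1 (-0.092 to 0.24), Hlf (-0.024 to 0.12), Csnk1e (-0.019 to 0.22) and Wee1 (-0.11 to 0.063). The cause was not tested. Arntl with Dbp over all 10 arrays gave r = -0.52 and rho = -0.39 (permutation p = 0.128 and 0.262), r = -0.39 and rho = -0.048 without knockout replicate 1 and wild type replicate 2, the farthest from the Arntl median, r = -0.36 after subtracting group means, -0.080 with the module as a block, and -0.76 to -0.30 with single arrays left out. With single arrays left out the permutation p, not adjusted for the number of fits, ran from 0.0195 to 0.428. The smallest was without knockout replicate 4 (r = -0.76), where Arntl and Dbp were both above their means. These pooled values mix the lower and higher sets of Dbp. With the replicate block 0 probe sets passed, and Dbp differed by 1.05 (limma adjusted p = 0.409). An unadjusted p under 0.05 was then found for 3 of 15 member probe sets, beside 1232 of all 13579. Deviations of same-numbered arrays correlated at -0.12 to 0.28. Arrays of different numbers were not compared, so whether replicate numbers mark pairs was not tested. Dim probe sets of Per2, Per3 and Tef are limited by signal over background.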

Other observations

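Probe sets of 1 gene did not always share a direction. On both Dbp probe sets knockout replicates 1 to 4 lay above all other arrays, in a different order among themselves. For Nr1d2, Npas2, Clock and Tef the tested probe sets differed in sign between knockout and wild type, at 0.08 and -0.17, 0.01 and -0.22, 0.03 and -0.05, and 0.36 and -0.11 on the log2 scale. The dimmest Per3 probe set, which was not tested, read 21.2 to 52.4 in knockout and 41.1 to 72.6 in wild type, the opposite direction to the one tested.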
